A study of Mus musculus with 24 samples.

Results

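Clearance of apoptotic cells was followed through 8 genes in splenic dendritic cells (DCs) of neonatal mice. They were the bridging molecules Mfge8, Gas6 and Pros1, the receptors Mertk, Axl and Tyro3, the scavenger receptor Cd36, and Anxa3, a phospholipid-binding annexin. Members were the probe sets whose single gene symbol in the annotation of the array is 1 of these 8, which gave 12 of 22626 probe sets and 8 of 12393 genes. Cd36 had 3 probe sets, Axl and Tyro3 had 2 each, and the other 5 genes had 1 each. The genes were chosen from results of these data, with the lower Mfge8 of naïve at-risk DCs already known. For this reason the comparison of naïve at-risk with naïve normal DCs, and every Mfge8 difference that rests on naïve arrays, is given as a description with no test.

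DCs were CD11c+ cells retained on magnetic beads from the spleens of 14-day-old BALB/C pups, and RNA was measured on 24 Affymetrix mouse arrays. Asthma-at-risk pups were born to mothers sensitized with ovalbumin (OVA), which had received 5 µg of OVA and 1 mg of alum at 3 and 7 days of age and aerosols of 3% OVA at 4, 8 and 12 weeks. Normal pups were born to control mothers. Stimulated pups, of either kind of mother, had received 1 intraperitoneal injection of 5 µg OVA in 1 mg alum, at day 3 by the sample labels and day 4 by the methods of the study, while naïve pups had received none. Set 1 held 4 stimulated at-risk, 4 stimulated normal, 4 naïve at-risk and 3 naïve normal arrays. Set 2, whose RNA was NuGEN amplified, held 5 stimulated at-risk and 4 stimulated normal arrays. By the methods of the study, 1 array of each set had been left out as an outlier in a principal component analysis. The methods call the arrays biological replicates. How many pups each array stands for was not stated, and the p-values rest on the spread from array to array. The 2 sets were preprocessed separately, and levels are therefore compared only within a set.

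Dying cells expose phosphatidylserine on their surface, and phagocytes recognize it through soluble bridges or directly. Mfge8 links the exposed lipid to integrins of the phagocyte, whereas Gas6 and protein S, the product of Pros1, link it to the receptor tyrosine kinases Tyro3, Axl and Mertk, known together as the TAM receptors. In DCs and macrophages TAM signaling is also known to dampen cytokine responses, in part through Socs proteins. Cd36 binds oxidized lipids and thrombospondin and takes part in the uptake of apoptotic cells.

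Values are log2 of the deposited signal of each probe set. The median signal of an array was 8.09 to 8.22, its lower quartile 5.00 to 5.09, and replicate arrays had a median SD of 0.10 to 0.15 by group. A probe set was called when its limma p, adjusted by Benjamini-Hochberg over all 22626 probe sets, was at most 0.05 and its log2 difference was 0.32 or more in size (the fold threshold). The 13 measured markers of conventional DCs were above the array medians on all 24 arrays, with Itgax, which encodes CD11c, at 12.63 to 13.10 and the MHC class II gene H2-Aa at 13.84 to 14.14. Xcr1 went down to 9.80 and Cd209a to 9.87. The list was not constant. In normal pups its mean level was 12.31 to 12.39 in stimulated and 12.08 to 12.18 in naïve DCs, and 3 of 13 genes rose (Zbtb46, Xcr1 and Itgae). In at-risk pups it was 12.26 to 12.34 and 12.16 to 12.27, with no call. The part of this in the members was not tested. Markers of platelets had a mean level of 9.49 to 10.56 on stimulated and 5.86 to 6.22 on naïve arrays of Set 1.

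Promoter sequences were matched by symbol for 7 of the 8 genes in RefSeq (GRCm38.p6). Those of Mfge8 and Mertk are shown because both transcripts were lower in stimulated than in naïve DCs of both kinds of pups. Each run is the 250 bases before the annotated start, 5′ to 3′ in the sense of the gene. Capitals mark a match, on either strand, to the core of the PU.1 motif (GAGGAA), the AP-1 motif (TGACTCA), the E-box (CACGTG) or the TATA box (TATAAA). The first is the Mfge8 window at chr7:79149061-79149310 (minus strand), and the second is the Mertk window at chr2:128698665-128698914 (plus strand).
Mfge8: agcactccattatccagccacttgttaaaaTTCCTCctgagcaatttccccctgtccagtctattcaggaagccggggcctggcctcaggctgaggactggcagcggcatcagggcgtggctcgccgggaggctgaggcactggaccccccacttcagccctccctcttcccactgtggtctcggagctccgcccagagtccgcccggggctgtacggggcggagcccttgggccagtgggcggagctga
Mertk: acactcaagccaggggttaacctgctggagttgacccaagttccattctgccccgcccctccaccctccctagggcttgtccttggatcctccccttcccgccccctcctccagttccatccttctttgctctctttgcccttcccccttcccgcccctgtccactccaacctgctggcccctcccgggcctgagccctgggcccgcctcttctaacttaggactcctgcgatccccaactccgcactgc
The Mfge8 window held 1 match to the PU.1 core, which begins 220 bases before the start, and the Mertk window held none of the 4 motifs. Among the other 5 windows, that of Axl held 1 PU.1 core, 130 bases before its start, and the rest held no match. Of 32851 promoter windows of this length 23.3% held the PU.1 core, 4.46% the AP-1 motif, 6.02% the E-box and 12.4% the TATA box. A match describes these letters only.

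Stimulation, the injection of OVA in alum, was the condition under which most of the genes differed. No group received alum or an injection without OVA, so allergen, alum and injection cannot be told apart. In at-risk pups, stimulated DCs had less Mfge8 and Mertk and more Pros1 than naïve DCs. In normal pups they had less Mfge8, Mertk and Anxa3 and more Cd36, and less Tyro3 by 1 of its 2 probe sets. Of the 11 probe sets other than that of Mfge8, 2 were called in at-risk pups (1 higher and 1 lower), where 7.88% of all probe sets were called, 4.42% as higher and 3.46% as lower. In normal pups 5 of the 11 were called (2 higher and 3 lower), where 11.5% of all were called, 5.73% as higher and 5.76% as lower. Stimulated and naïve arrays did not overlap for 5 of these 11 in at-risk pups, against 17.7% of all, and for 8 of 11 in normal pups, against 21.9% of all. The median log2 change of the 11 was 0.025 in at-risk pups (-0.015 over all probe sets) and -0.162 in normal pups (0.004 over all). Because the genes were chosen from results of these data, nothing is read from these counts and medians beside those of all probe sets. Whether the changes differed between the 2 kinds of pups was not tested.

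**Figure D1:**
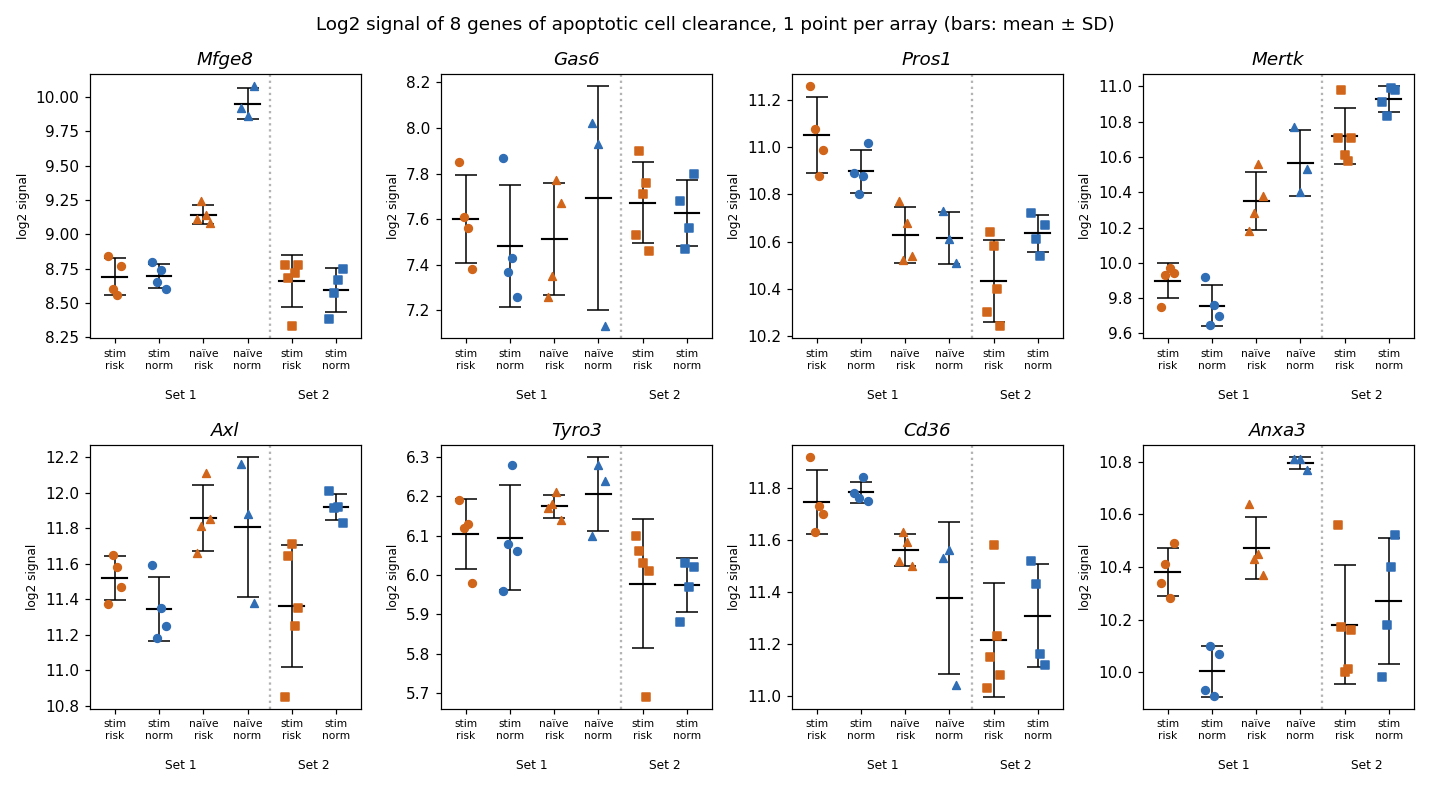
Log2 signal (y axis) of the brightest probe set of each of the 8 genes, 1 point per array, in stimulated (stim) and naïve DCs of at-risk (risk, orange) and normal (norm, blue) pups, with bars for the mean ± SD; Set 1 stands left and Set 2 right of the dotted line. Mfge8 is at 8.56 to 8.84 on all stimulated arrays of Set 1, and at 9.08 to 9.24 on the naïve at-risk and 9.86 to 10.08 on the naïve normal arrays.

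Mfge8 (chr7:79133768-79149060), the bridge to integrins, was at 8.84, 8.60, 8.56 and 8.77 in stimulated at-risk DCs of Set 1 and at 8.80, 8.65, 8.74 and 8.60 in stimulated normal DCs. It was at 9.11, 9.24, 9.14 and 9.08 in naïve at-risk DCs and at 9.92, 9.86 and 10.08 in naïve normal DCs. All stimulated arrays of Set 1 thus lay below all naïve ones, and the naïve at-risk arrays lay between the stimulated and the naïve normal ones without overlap. The difference of stimulated from naïve DCs was -0.45 (SE 0.08) in at-risk pups and -1.25 (SE 0.08, a 2.39-fold lower level) in normal pups, with means of 8.69 and 9.14 in stimulated and naïve at-risk DCs and of 8.70 and 9.95 in stimulated and naïve normal DCs. Between stimulated at-risk and stimulated normal DCs the difference was 0.00 in Set 1 (95% interval -0.17 to 0.16, adjusted p = 0.998). In Set 2 Mfge8 was at 8.78, 8.68, 8.33, 8.72 and 8.78 in at-risk DCs and at 8.38, 8.57, 8.67 and 8.75 in normal DCs, and these overlapped, with a difference of 0.07 (95% interval -0.18 to 0.31, adjusted p = 0.75). In order of mean level in Set 1, naïve normal DCs were highest, then naïve at-risk DCs, and the 2 stimulated groups did not differ beyond their spread.

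Between naïve at-risk and naïve normal DCs the difference of Mfge8 was -0.81 (SE 0.08), which is the value known when the genes were chosen. It was the 1 of the 12 probe sets past both thresholds there (0.34% of all probe sets were), and nothing is read from this count. Arrays of the 2 naïve groups also did not overlap for Anxa3 and for the dimmer Tyro3 probe set, both lower in at-risk DCs. For Tyro3 the nearest arrays, at-risk AF80 and normal AF77, were both at 4.67 after rounding, below the lower quartile of the arrays. With Mfge8 these were 3 of the 12, where 11.1% of all probe sets did not overlap (5.39% of all lower in at-risk DCs). Nothing is read from this count either, since it holds the value known when the genes were chosen.

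Markers of follicular dendritic cells, stromal cells of the lymphoid follicle in which Mfge8 is known to be abundant, had a lower mean level in naïve at-risk than in naïve normal DCs. Over the 5 genes of that list (Cr2, Cxcl13, Madcam1, Ltbr and Clu) the mean level in Set 1 was 8.19 to 8.54 in stimulated at-risk, 8.08 to 8.29 in stimulated normal, 8.39 to 8.61 in naïve at-risk and 8.93 to 9.36 in naïve normal DCs. Between naïve at-risk and naïve normal DCs the difference was -0.71 (SE 0.10) for Cr2, the complement receptor, and -1.11 (SE 0.19) for Clu, clusterin. Of the 5 genes, 2 passed both thresholds there as lower (0.34% of all probe sets passed), 3 did not, and 1 of the 5 was higher in at-risk DCs. The B cell chemokine Cxcl13 was at 8.75 to 9.13 in naïve at-risk and 9.78 to 10.36 in naïve normal DCs (difference -1.09). With stimulation Cxcl13 fell by 1.18 (SE 0.21, adjusted p = 0.00181) in at-risk and by 2.58 (SE 0.23, adjusted p = 3.76e-06) in normal pups. The list did not follow Mfge8 in every group. In at-risk pups its stimulated and naïve arrays overlapped, whereas those of Mfge8 did not, and Clu rose by 1.02 with stimulation (adjusted p = 0.00149). In Set 2 the list was at 8.49 to 8.78 in at-risk and 8.21 to 8.51 in normal DCs, and overlapped, as Mfge8 did. Madcam1 was dim, at 4.65 to 5.90 in Set 1. The T cell list was at 7.79 to 7.96 in stimulated at-risk, 7.49 to 8.91 in stimulated normal, 8.96 to 9.07 in naïve at-risk and 9.36 to 9.57 in naïve normal DCs, and with stimulation 4 of its 6 genes fell in at-risk pups (median -1.16) and 6 of 6 in normal pups (median -1.44). In naïve DCs the B cell list was at 9.94 to 10.06 in at-risk and 10.01 to 10.07 in normal pups. The part of these cells in the level of Mfge8 was not tested. In such bulk RNA, fewer cells of a type and less RNA per cell cannot be told apart.

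Gas6 (chr8:13465374-13494535), the ligand of all 3 TAM receptors, was not called in any comparison, and its arrays spread widely. It was at 7.85, 7.61, 7.56 and 7.38 in stimulated at-risk DCs of Set 1 and at 7.87, 7.37, 7.43 and 7.26 in stimulated normal DCs. In naïve at-risk DCs it was at 7.26, 7.35, 7.77 and 7.67, and in naïve normal DCs at 8.02, 7.93 and 7.13. The groups overlapped throughout, and the naïve normal array at 7.13 was below all other arrays of the set. The change with stimulation was 0.09 in at-risk pups (95% interval -0.32 to 0.49, adjusted p = 0.869) and -0.21 in normal pups (-0.65 to 0.22, adjusted p = 0.543). These intervals are the widest of the 12 probe sets in both comparisons.

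Pros1 (chr16:62854307-62929346), which encodes the anticoagulant and TAM ligand protein S, was higher after stimulation. It was at 11.26, 11.08, 10.88 and 10.99 in stimulated at-risk DCs and at 10.77, 10.52, 10.68 and 10.54 in naïve at-risk DCs, without overlap, and rose by 0.42 (SE 0.09, adjusted p = 0.00493). In normal pups it was at 10.89, 10.80, 10.88 and 11.02 in stimulated and 10.73, 10.61 and 10.51 in naïve DCs, which did not overlap either, with a difference of 0.28 that missed the threshold (SE 0.09, adjusted p = 0.0612) and passed it without the naïve array AF76 (0.34, adjusted p = 0.048). That was the 1 call among 24 alternatives, whose adjusted p went up to 0.174. Between stimulated at-risk and stimulated normal DCs Pros1 differed by 0.15 in Set 1 (95% interval -0.03 to 0.34, adjusted p = 0.783) and by -0.20 in Set 2 (-0.41 to 0.00, adjusted p = 0.233), where it was at 10.30, 10.64, 10.58, 10.40 and 10.24 in at-risk DCs and 10.72, 10.61, 10.54 and 10.67 in normal DCs.

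Platelet markers moved with Pros1 in Set 1 and not in Set 2. All 8 measured markers rose with stimulation in both kinds of pups, and their mean level was 9.60 to 10.56 in stimulated at-risk, 9.49 to 9.97 in stimulated normal, 5.86 to 6.22 in naïve at-risk and 5.86 to 6.08 in naïve normal DCs. In Set 2 it was 7.96 to 9.42 in at-risk and 6.41 to 6.68 in normal DCs, and all 8 were called higher, while Pros1 was at 10.24 to 10.64 in at-risk and 10.54 to 10.72 in normal DCs. Erythroid markers were at 10.16 to 10.59 in stimulated at-risk and 8.52 to 8.81 in naïve at-risk DCs of Set 1, and all 6 measured rose. Their part in the result was not tested.

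Mertk (chr2:128698915-128803162), the TAM receptor best known for engulfment by macrophages, fell with stimulation in both kinds of pups. In at-risk pups it was at 9.75, 9.93, 9.97 and 9.94 in stimulated DCs and at 10.18, 10.28, 10.56 and 10.38 in naïve DCs, a fall by 0.45 (SE 0.10, adjusted p = 0.00666). In normal pups it was at 9.92, 9.65, 9.76 and 9.70 in stimulated DCs and at 10.77, 10.40 and 10.53 in naïve DCs, a fall by 0.81 (SE 0.10, adjusted p = 0.000109). Stimulated and naïve arrays did not overlap in either kind of pup, and both calls were kept under all alternatives run. In naïve DCs alone, at-risk and normal arrays overlapped (difference -0.22, SE 0.10). The order of the means in Set 1 was naïve normal, naïve at-risk, stimulated at-risk and stimulated normal, and neighbours other than naïve at-risk and stimulated at-risk overlapped.

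Between stimulated at-risk and stimulated normal DCs Mertk differed by 0.14 in Set 1 (95% interval -0.07 to 0.35, adjusted p = 0.856) and by -0.21 in Set 2 (-0.40 to -0.02, adjusted p = 0.193). The Set 2 arrays were at 10.71, 10.98, 10.61, 10.58 and 10.71 in at-risk DCs and 10.91, 10.83, 10.99 and 10.98 in normal DCs. All but 1 of the at-risk arrays lay below all normal ones. The 2 differences were themselves set against each other, and Set 2 minus Set 1 gave -0.35 (SE 0.12, adjusted p = 0.153), which passed the threshold without the at-risk array AF124 (-0.42, adjusted p = 0.0467). It was called under 2 of 25 alternatives, with an adjusted p of up to 0.256.

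Axl (chr7:25756500-25788924), the TAM receptor known from DCs, had 1 bright and 1 very dim probe set. The bright one was at 11.37, 11.65, 11.58 and 11.47 in stimulated at-risk DCs of Set 1 and at 11.59, 11.18, 11.35 and 11.25 in stimulated normal DCs, against 11.66, 11.81, 12.11 and 11.85 in naïve at-risk DCs and 12.16, 11.88 and 11.38 in naïve normal DCs. Stimulated arrays lay below naïve ones in at-risk pups, whereas in normal pups the naïve array AF79, at 11.38, was within the stimulated range. The change was -0.34 in at-risk pups (SE 0.15, adjusted p = 0.189) and -0.46 in normal pups (SE 0.16, adjusted p = 0.0628). Without AF79 the difference in normal pups passed the threshold at -0.68 (adjusted p = 0.00378), and without the stimulated array AF84 it did so at -0.55 (adjusted p = 0.039). It was called under 5 of 24 alternatives, with an adjusted p of up to 0.231.

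In Set 2 the bright Axl probe set separated the groups. It was at 10.85, 11.64, 11.71, 11.25 and 11.35 in stimulated at-risk DCs and at 12.01, 11.91, 11.92 and 11.83 in stimulated normal DCs. No at-risk array reached the lowest normal one, and the difference of -0.56 (SE 0.16, a 1.47-fold lower mean) missed the threshold (adjusted p = 0.0752) but passed it without the at-risk array AF125 (-0.65, adjusted p = 0.0307). This difference was called under 3 of 17 alternatives, with an adjusted p of up to 0.196. Set 2 minus Set 1 was -0.73 (SE 0.20, adjusted p = 0.0726), and without AF125 -0.82 (adjusted p = 0.021), with a call under 2 of 25 alternatives (adjusted p of up to 0.15). The dim probe set was at 3.16 to 3.64 on all arrays, below every array's lower quartile, was called in no comparison and had an r of 0.38 with the bright one over the 24 arrays, after each set's mean was subtracted.

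Tyro3 (chr2:119797740-119818104), the TAM receptor best known from neurons, gave different results by probe set. That at 5.69 to 6.28 differed little, with changes with stimulation of -0.07 in at-risk (adjusted p = 0.679) and -0.11 in normal pups (adjusted p = 0.387). In at-risk pups the dimmer one was at 4.39, 4.10, 4.12 and 4.29 in stimulated and 4.67, 4.33, 4.56 and 4.48 in naïve DCs, which overlapped (-0.28, SE 0.10, adjusted p = 0.114). In normal pups it fell, at 4.38, 4.29, 4.19 and 4.40 in stimulated and 5.13, 4.67 and 5.00 in naïve DCs (-0.62, SE 0.11, adjusted p = 0.00174). Nearly all of these values lie below the lower quartile of the arrays, and the r between the 2 probe sets was 0.15, so the fall rests on a dim measurement that the other probe set does not share.

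Markers of macrophages were lower in the groups in which Mertk and Axl were lower. Over the 9 measured genes the mean level in Set 1 was 10.59 to 10.72 in stimulated at-risk, 10.40 to 10.60 in stimulated normal, 10.95 to 11.14 in naïve at-risk and 10.94 to 11.24 in naïve normal DCs. With stimulation 2 of the 9 fell in at-risk pups (Cd5l and Marco) and 5 in normal pups (Cd5l, Spic, Csf1r, Marco and Hmox1), and none rose. Cd5l, an apoptosis inhibitor secreted by tissue macrophages, fell by 1.18 in at-risk pups (adjusted p = 3.72e-06) and fell by 1.67 in normal pups (adjusted p = 3.82e-07). In Set 2 the list was at 10.54 to 10.94 in at-risk and 11.11 to 11.23 in normal DCs, without overlap, and Cd5l, Spic and Marco were called lower. The arrays of the lowest and the highest Axl in Set 2 at-risk DCs were at 10.54 and 10.87 on this list. The part of macrophages in the levels of Mertk and Axl was not tested.

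**Figure D2:**
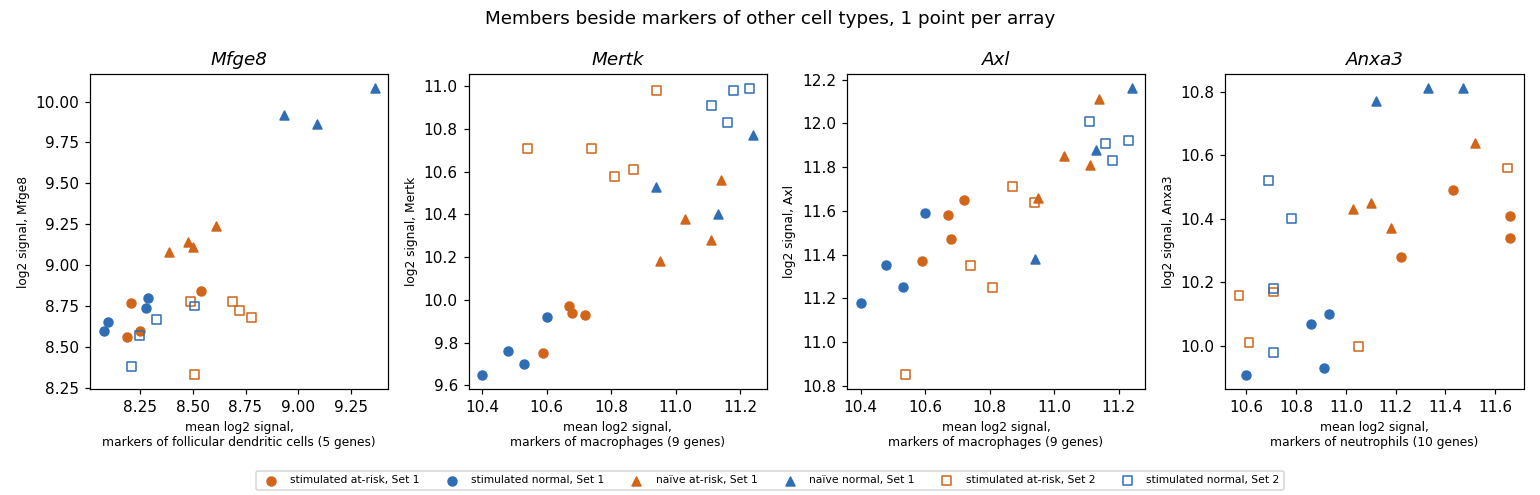
Log2 signal of Mfge8, Mertk, Axl and Anxa3 (y axes) against the mean log2 signal of a list of markers (x axes; follicular dendritic cells, macrophages or neutrophils), 1 point per array; orange marks at-risk and blue normal pups, circles stimulated Set 1, triangles naïve Set 1 and open squares stimulated Set 2. The naïve normal arrays stand at 8.93 to 9.36 on the follicular dendritic cell list, and the stimulated arrays of Set 1 at 10.40 to 10.72 on the macrophage list.

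Cd36 (chr5:17781690-17888959) was higher after stimulation in normal pups by 2 of its 3 probe sets. In at-risk pups the differences were 0.19 for the brightest, 0.14 for the dimmest and 0.23 for the third (adjusted p = 0.317, 0.444 and 0.0184), none of them past both thresholds. In normal pups the brightest was at 11.78, 11.76, 11.84 and 11.75 in stimulated DCs and at 11.53, 11.56 and 11.04 in naïve DCs, a rise by 0.41 (SE 0.11, adjusted p = 0.0178). It did not pass the fold threshold without the naïve array AF79, whose 11.04 stood apart (0.24, adjusted p = 0.0423). The dimmest, at 9.65, 9.66, 9.74 and 9.74 in stimulated and 9.24, 9.13 and 9.46 in naïve normal DCs, rose by 0.42 (SE 0.10, adjusted p = 0.00811) and kept its call under all alternatives in which it was tested. The third differed by 0.30 (SE 0.06, adjusted p = 0.00491), under the fold threshold.

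In Set 2 the brightest and the third Cd36 probe set ran together, and the dimmest did not follow them. The brightest was at 11.03, 11.15, 11.58, 11.23 and 11.08 in stimulated at-risk DCs and 11.52, 11.43, 11.16 and 11.12 in stimulated normal DCs, which overlapped, with a difference of -0.09 (95% interval -0.38 to 0.19, adjusted p = 0.688). The dimmest was at 9.43, 9.36, 9.43, 9.66 and 9.28 in stimulated at-risk DCs and 9.27, 9.25, 9.22 and 9.16 in stimulated normal DCs, which did not overlap (0.21, adjusted p = 0.173). The third was at 9.61, 10.51, 11.36, 10.96 and 10.46 in at-risk DCs and 11.45, 11.38, 10.72 and 10.44 in normal DCs, a spread far above that of Set 1, with a difference of -0.42 (95% interval -1.17 to 0.33, adjusted p = 0.479). Over the 9 arrays of Set 2 r between the brightest and the third was 0.90, between the brightest and the dimmest 0.06 and between the third and the dimmest -0.01. Over the 15 arrays of Set 1 these r were 0.82, 0.54 and 0.72. Platelets are known to carry Cd36, and their markers are given above beside Pros1. Their part in the Cd36 levels was not tested.

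Anxa3 (chr5:96793385-96845968), an annexin that is abundant in neutrophils, had the maternal difference of opposite sign before and after stimulation in Set 1. In stimulated DCs it was at 10.34, 10.41, 10.28 and 10.49 in at-risk pups and at 9.93, 10.10, 9.91 and 10.07 in normal pups, so that all at-risk arrays were higher. In naïve DCs it was at 10.64, 10.43, 10.45 and 10.37 in at-risk pups and at 10.81, 10.81 and 10.77 in normal pups, so that all at-risk arrays were lower. The stimulated difference was 0.38 (SE 0.07, a 1.3-fold higher mean) and missed the threshold over all probe sets (adjusted p = 0.0714). It passed without the stimulated at-risk array AF90 (0.41, adjusted p = 0.0443) or the naïve array AF80, which is in neither group compared (0.38, adjusted p = 0.0303). It was called under 6 of 24 alternatives, with an adjusted p of up to 0.453. The naïve difference was -0.33 (SE 0.08). With stimulation the difference of Anxa3 was -0.09 in at-risk pups (95% interval -0.24 to 0.06, adjusted p = 0.535), whereas in normal pups it fell by 0.80 (SE 0.08, a 1.74-fold lower mean, adjusted p = 8.47e-06).

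In Set 2 Anxa3 was at 10.56, 10.17, 10.00, 10.01 and 10.16 in stimulated at-risk DCs and at 9.98, 10.18, 10.40 and 10.52 in stimulated normal DCs, which overlapped throughout (-0.09, 95% interval -0.40 to 0.22, adjusted p = 0.733). Set 2 minus Set 1 was -0.47 (SE 0.17, adjusted p = 0.184).

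Neutrophil markers moved with Anxa3 in Set 1. The mean level of the 10 genes was 11.22 to 11.66 in stimulated at-risk, 10.60 to 10.93 in stimulated normal, 11.03 to 11.52 in naïve at-risk and 11.12 to 11.47 in naïve normal DCs. With stimulation none of the 10 fell in at-risk pups, and Mpo and Elane rose. In normal pups 7 fell, among them the granule genes Ltf, by 1.22 (adjusted p = 4.84e-05), and Lcn2, by 1.15 (adjusted p = 5.05e-05), while Mpo rose. In stimulated DCs Ltf and Lcn2 were higher in at-risk than in normal pups by 0.94 (adjusted p = 0.0173) and 0.93 (adjusted p = 0.0173). In naïve DCs, where Anxa3 did not overlap, the list overlapped between at-risk and normal pups. In Set 2 the list was at 10.57 to 11.65 in at-risk and 10.69 to 10.78 in normal DCs. The part of neutrophils in the level of Anxa3 was not tested.

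**Figure D3:**
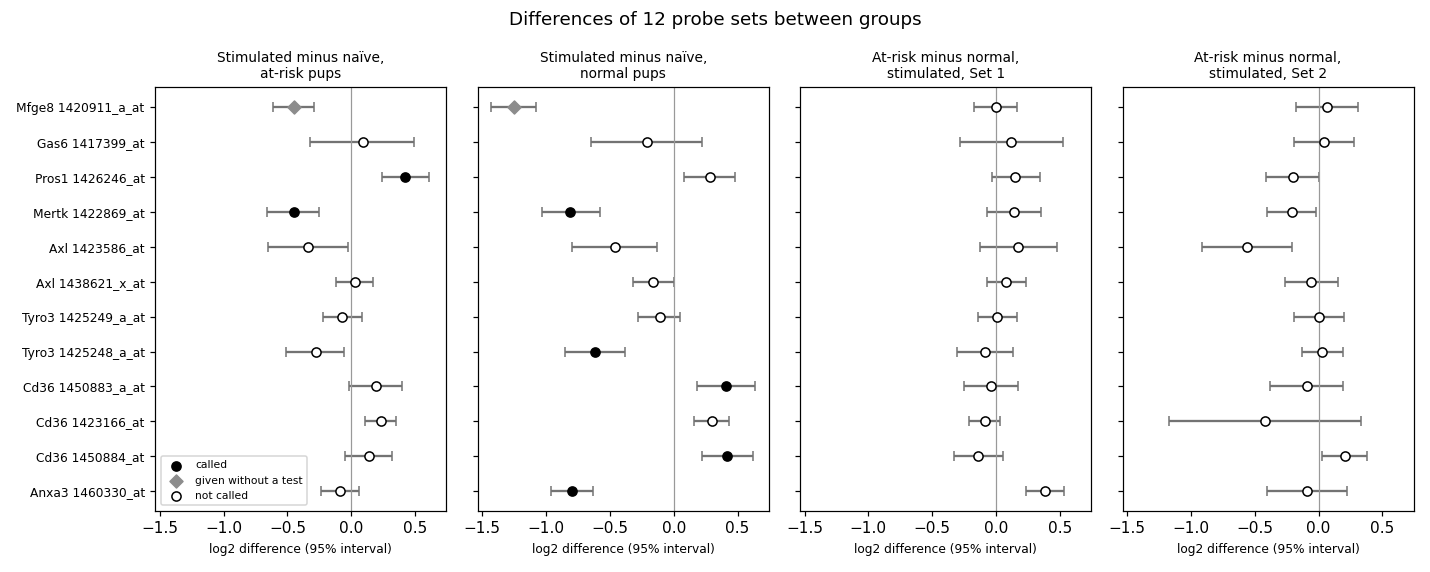
Log2 differences (x axis, with 95% intervals from limma) of the 12 probe sets for stimulated minus naïve DCs of at-risk and of normal pups (Set 1) and for at-risk minus normal stimulated DCs of Set 1 and of Set 2; filled points passed both thresholds, open points did not, and grey diamonds are Mfge8 differences given without a test. Mertk lies at -0.45 and -0.81 in the panels of stimulation, and no point is filled in the 2 panels of maternal status.

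Maternal status in stimulated DCs, the second question of the study, gave no call among the 12 probe sets. With both sets in limma and set as a term, 0 of 12 were called, against 1.73% of all probe sets. Their differences ran from -0.26 to 0.13, the lowest adjusted p was 0.427 and 0 of 12 had an unadjusted p under 0.05, against 17% of all. Within Set 1, 0 of 12 were called (0.0707% of all) and 1 of 12, Anxa3, had an unadjusted p under 0.05 (7.31% of all). Its arrays were also the only ones of the 12 not to overlap, against 6.23% of all. Within Set 2, 0 of 12 were called (4.62% of all), and Mertk, Axl and 1 Cd36 probe set, 3 of 12, had an unadjusted p under 0.05 (21.9% of all), with no overlap for 2 of 12 (10.1% of all). For the difference between the sets 0 of 12 were called (1.79% of all), and 5 of 12 had an unadjusted p under 0.05 (16.3% of all).

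Other genes of apoptotic cell recognition moved in both directions with stimulation. Of 18 further bridging molecules and receptors measured, 4 rose and 4 fell in at-risk pups, and 4 rose and 5 fell in normal pups. Of all probe sets, 4.42% were called higher and 3.46% lower in at-risk pups, and 5.73% and 5.76% in normal pups. The median change was -0.11 in at-risk pups (-0.011 over all genes) and -0.13 in normal pups (-0.003 over all genes). Lrp1, a receptor for calreticulin, fell by 0.82 in at-risk pups (SE 0.11, adjusted p = 0.000221) and by 1.15 in normal pups (SE 0.12, adjusted p = 2.3e-05). The lipopolysaccharide co-receptor Cd14, which also tethers apoptotic cells, fell by 0.81 in at-risk pups (SE 0.10, adjusted p = 7.61e-05) and by 0.80 in normal pups (SE 0.11, adjusted p = 0.000169). The complement bridge C1qb fell by 0.35 in at-risk pups (adjusted p = 0.00634) and by 0.60 in normal pups (adjusted p = 0.000138).

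Those that rose included Stab1, a phosphatidylserine receptor also of endothelium, and Thbs1, the thrombospondin that binds Cd36 and is stored in platelets. Stab1 rose by 0.85 in at-risk pups (SE 0.18, adjusted p = 0.00534) and by 0.88 in normal pups (SE 0.19, adjusted p = 0.00599). Thbs1 rose by 1.83 in at-risk pups (SE 0.20, adjusted p = 2.43e-05) and by 0.72 in normal pups (SE 0.21, adjusted p = 0.037), with levels of 9.74 to 11.06 in stimulated at-risk and 8.41 to 8.66 in naïve at-risk DCs. Endothelial markers were at 6.82 to 7.88 in stimulated at-risk and 6.29 to 6.72 in naïve at-risk DCs, and at 6.64 to 6.98 in stimulated normal and 6.13 to 6.61 in naïve normal DCs. Their part in Stab1, and that of platelets in Thbs1, was not tested.

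Of 11 measured genes that handle the lipid load after uptake, 3 fell with stimulation in both kinds of pups, 8 were not called and none rose. Of all probe sets, 3.46% were called lower in at-risk and 5.76% in normal pups. The 3 were the sterol-sensing receptor gene Nr1h3, the fatty acid receptor gene Pparg and the cholesterol exporter Abca1. Abca1 fell by 0.52 in at-risk pups (SE 0.12, adjusted p = 0.0126) and by 0.96 in normal pups (SE 0.13, adjusted p = 0.000208). Nr1h3 fell by 0.64 in at-risk pups (adjusted p = 0.00628) and by 0.86 in normal pups (adjusted p = 0.00101), and Pparg by 0.56 in at-risk pups (adjusted p = 0.005) and by 0.73 in normal pups (adjusted p = 0.00102). The median change over the list was -0.17 in at-risk pups (-0.011 over all genes) and -0.10 in normal pups (-0.003 over all genes). Of 9 scavenger receptors, Marco fell in at-risk pups, and Marco and the mannose receptor Mrc1 in normal pups. The macrophage list, of which Marco is a member, was lower on the same stimulated arrays (10.59 to 10.72 in stimulated at-risk and 10.95 to 11.14 in naïve at-risk DCs, 10.40 to 10.60 in stimulated normal and 10.94 to 11.24 in naïve normal DCs), and its part in these falls was not tested. Socs3, a cytokine feedback inhibitor, fell by 1.01 in at-risk pups (adjusted p = 1.84e-05) and fell by 1.54 in normal pups (adjusted p = 7.7e-07). It was the 1 gene called of 6 in a list of Socs proteins, interferon receptors and TAM-shedding proteases. Between naïve at-risk and naïve normal DCs the difference of Socs3 was -0.71 (SE 0.11), past both thresholds (0.34% of all probe sets passed). S1pr1 fell in normal pups, as the 1 called of 11 find-me and do-not-eat-me genes. No call was made in any comparison for the 11 genes of engulfment signaling, the 6 of phosphatidylserine exposure and the 10 other annexins.

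Between stimulated at-risk and stimulated normal DCs, Cd93, a C-type lectin once described as a C1q receptor, was the 1 of the 18 bridging molecules and receptors called with both sets (0.58, SE 0.08, adjusted p = 0.0031). In Set 2 Cd93 rose by 0.74 (adjusted p = 0.000524) and Stab1 by 1.06 (adjusted p = 0.0118), and C1qc, Cd14 and Havcr1 fell, as did Marco, Nr1h3, Socs3 and the fractalkine receptor Cx3cr1 of the other lists. None of these lists held a call between the stimulated groups of Set 1, where only 0.0707% of all probe sets were called, against 4.62% in Set 2 and 1.73% with both sets. The maternal difference was lower in Set 2 than in Set 1 for C1qb, C1qc, Marco, Olr1, Cx3cr1 and Nr1h3, for example by -0.62 for C1qc (SE 0.11, adjusted p = 0.00978) and by -0.70 for Nr1h3 (SE 0.11, adjusted p = 0.00417). In Set 2, 7 of the 9 marker lists of other cells did not overlap between at-risk and normal DCs. The macrophage list was lower in at-risk DCs, as given above, and so was the T cell list, at 7.78 to 8.24 in at-risk and 8.52 to 8.63 in normal DCs (5 of 6 genes called lower). Higher in at-risk DCs, beside the platelet list, were the lists of endothelium (6.94 to 7.47 in at-risk and 6.22 to 6.50 in normal DCs), stroma (6.41 to 6.93 in at-risk and 5.75 to 5.94 in normal DCs), erythroid cells (9.86 to 11.34 in at-risk and 9.23 to 9.32 in normal DCs) and B cells (10.95 to 11.11 in at-risk and 10.68 to 10.77 in normal DCs). Their part in the Set 2 differences was not tested.

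The pattern most like that of Mfge8 over the 24 arrays, after each set's mean was subtracted, was that of Phlda1, with a Pearson r of 0.98 (0.98 over the 15 arrays of Set 1, 0.88 over the 9 of Set 2 and 0.81 after group means were subtracted). Phlda1 was at 7.65 to 7.87 in stimulated at-risk, 7.68 to 7.91 in stimulated normal, 8.32 to 8.42 in naïve at-risk and 9.09 to 9.51 in naïve normal DCs, the same order as Mfge8. Impdh1, an enzyme of guanine nucleotide synthesis, followed at 0.92, and Cxcl13 at 0.91, the last with an r of -0.33 within Set 2. Mertk was most like Slc45a3 (0.96), the glutamate transporter gene Slc1a3 (0.95) and the ficolin gene Fcna (0.95), and each of these 3 had an r of 0.86 or more in Set 2. Axl was most like Cd302 (0.95), Abcc3 (0.94) and Vcam1 (0.94), of which Vcam1 is also on the macrophage list. Cd302, a C-type lectin, was called lower in stimulated at-risk than in stimulated normal DCs of Set 2 (-0.48, SE 0.12, adjusted p = 0.0492).

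Anxa3 was most like Wfdc21 (0.89), Chil3 (0.88) and Chil1 (0.88), the last 2 of which encode chitinase-like proteins. With stimulation Chil3 had a difference of -0.24 in at-risk pups (adjusted p = 0.255) and fell by 1.76 in normal pups (SE 0.13, adjusted p = 5.83e-07), while Wfdc21 was higher by 0.94 in stimulated at-risk than in stimulated normal DCs of Set 1 (SE 0.16, adjusted p = 0.0396). Pros1 was most like BC016579 (0.86), and Cd36 like Frg1 and Ckb (0.92 each). Gas6 was most like Angptl4 (0.80), for which r was 0.08 in Set 2, and the highest r of Tyro3 was 0.70, with Olig1, Cldn19 and Hapln2. These r values are descriptions over arrays that share their groups, and the genes were picked as the highest of 12393.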

How the data were processed

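The deposited table held, for 24 arrays of Mouse430A 2.0, a linear intensity for each probe set, which the authors had made with RMA (version not stated). By the methods each set was preprocessed on its own, and summarized with a RefSeq-based definition, whereas the table holds Affymetrix's own probe sets. Of 22690 probe sets, 64 controls were left out. The log2 of each value was taken with no pseudocount. The number of arrays limits the precision. An array's set came from its number in the labels (76 to 91 for Set 1 and 118 to 127 for Set 2), and 0 columns belonged to no sample.

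All 22626 probe sets were tested with limma 3.58.1 (R 4.3.3, lmFit and eBayes). For the comparisons within Set 1 its 15 arrays were fitted with a mean for each group, Set 2 was fitted on its 9 arrays, and the stimulated comparison over both sets on 17 arrays with set as a term. Stimulation comparisons share arrays with the maternal comparisons. Marker and pathway lists, each gene by its brightest probe set, are described by counts and medians. All members were named, as were up to 4 genes of a list called in a comparison, by smallest adjusted p, and the 3 genes with the highest r to each member. Called genes of a list beyond these, the single genes of the follicular dendritic cell list and the values of Phlda1, Cd302, Chil3 and Wfdc21 were added after they were seen. Members and lists were chosen with earlier results of these data known. Scripts were tested on simulated data. Figures were drawn with Python 3.11.15 and matplotlib 3.10.9.

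The alternatives tried were other samples in the fit, set left out as a term or taken as a random block, quantile normalization over the arrays of each fit, median centring, a filter on dim probe sets (mean signal below the 40th percentile), calls without the fold threshold, trend and robust moderation, array weights, a single probe set for a gene, and omission of each array.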

Additional observations from a re-analysis of the deposited data

Results flagged for a closer look

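For 4 of the 60 groups of 4 or 5 arrays examined (12 probe sets in 5 groups), 1 array stood apart from the others of its group, and chance gives about 1 in 20. In stimulated at-risk DCs of Set 2, Mfge8 was at 8.33 on AF125 and at 8.68 to 8.78 on the other 4 arrays. In the same group the brighter Tyro3 probe set was at 5.69 on AF126 and at 6.01 to 6.10 on the others. In stimulated normal DCs of Set 2 the dimmer Tyro3 probe set was at 4.47 on AF120 and at 4.33 to 4.35 on the others. In stimulated at-risk DCs of Set 1 the dimmest Cd36 probe set was at 9.80 on AF88 and at 9.45 to 9.51 on the others.

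For Anxa3 all stimulated at-risk arrays of Set 1 were above all stimulated normal ones, and all naïve at-risk arrays were below all naïve normal ones. Of all probe sets, 6.23% did not overlap between the stimulated groups of Set 1 and 11.1% between the naïve groups. The maternal difference in stimulated DCs minus that in naïve DCs was 0.70 on the log2 scale, and this difference was not tested.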

How the results depend on the processing

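Counts of members called changed as follows. In naïve DCs, which are given as a description, 1 passed both thresholds, and 1 to 2 with each array left out (2 without AF77, with the dimmer Tyro3 probe set at -0.56). Within Set 1, stimulated at-risk against stimulated normal DCs gave 0, and 1 (Anxa3) with dim probe sets left out, with trend and robust moderation, with array weights and with 1 probe set per gene, and 0 to 1 with each array left out. Within Set 2 it gave 0, and 1 (Axl) with all 24 arrays in 1 fit and with array weights, and 0 to 1 with each array left out. The difference between the sets gave 0, and 4 with array weights (Mertk, Axl, Anxa3 and 1 Cd36 probe set), and 0 to 1 with each array left out (AF88, AF124 or AF125). With both sets the count was 0 throughout. With stimulation, Mfge8 included, it was 3 in at-risk pups (3 to 4 over all alternatives) and 6 in normal pups (4 to 7). The causes were not tested, except that fewer probe sets were tested where some were left out.

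The call of the brightest Cd36 probe set in normal pups was lost with only the 2 groups compared (adjusted p = 0.096) and with array weights (0.26, under the fold threshold). Axl passed in normal pups with median centring (-0.50), and with trend and robust moderation. Gas6 passed there with array weights (-0.51, adjusted p = 0.0352). Of 1931 alternative values of single probe sets 1832 kept direction and call, 3 lost a call, 27 gained one, 0 called values reversed, and 69 changed sign below the threshold. Calls over all probe sets were 77 in naïve DCs (12 to 269), 391 in stimulated DCs of both sets (139 to 578 with each array left out, up to 726 otherwise), 16 in Set 1 (0 to 71), 1045 in Set 2 (504 to 3136), 404 for the difference between sets (204 to 2454), 1782 with stimulation in at-risk pups (1056 to 2171) and 2599 in normal pups (1493 to 3224). No paired analysis was possible because the array numbers in the labels are not shared between groups.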
